A study of Mus with 12 samples.

Results

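The response of knockout macrophages to oxidised low-density lipoprotein (oxLDL) was measured by comparing 3 RNA sequencing libraries of knockout (KO) cells with oxLDL against 3 libraries of untreated KO cells. These 6 of the 12 libraries in the series were chosen by their labels alone. The other 6 came from wild-type (WT) cells, 3 untreated and 3 with oxLDL, and serve here to show which genes respond to oxLDL in this system. The labels give the source as primary macrophages from the mouse peritoneum, and the genotype as KO without naming a gene. The series title names WEE1. No promoter, Cre line, age, dose or time is given in the labels. The treatment label says oxLDL while the sample titles say LDL, and the untreated libraries carry no treatment label. Whether the libraries stem from separate animals or cultures is not stated, so p-values and intervals cover only the spread among these libraries, which may be technical. Of 27294 genes in the table, 17291 were tested, and the 10003 others had too few counts.

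Oxidised LDL enters macrophages through scavenger receptors such as CD36 and MSR1. Its cholesterol is freed in lysosomes, stored as ester in lipid droplets or exported by ABCA1 and ABCG1, whose genes are switched on by liver X receptors when sterols build up. Oxidised lipids can also act through Toll-like receptors to release NF-κB dimers from their IκB inhibitors, which raises cytokine and chemokine genes. WEE1 is a kinase that restrains entry into mitosis by phosphorylating cyclin-dependent kinases. The title ties it to the NF-κB subunit p65, the product of Rela.

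Wee1 itself stood at 1.6, 1.6 and 1.2 FPKM (fragments per kilobase of transcript, scaled to library size) in the 3 untreated KO libraries. It stood at 1.3, 1.6 and 1.2 FPKM in the 3 KO libraries with oxLDL. The groups overlapped, and the log2 change was -0.11 with a 95% interval of -0.42 to 0.20. Untreated WT libraries held 3.05 ± 0.23 FPKM of Wee1 (SD, n = 3), so the transcript was lower in KO but present. Because counts are summed over the gene, they cannot show a loss of single exons.

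The KO libraries were deep and even, with 74672027 to 76809931 counts each. Macrophage markers were abundant, with a summed level of 11074 to 11781 FPKM over 7 genes in untreated KO and 10637 to 11279 FPKM with oxLDL. Across the 6 KO libraries Lyz2, the lysozyme gene, had 8171 to 9184 FPKM and Cd68, a lysosomal glycoprotein of macrophages, had 1944 to 2106 FPKM. Markers of other cells were low or at 0. Cd3e of T cells, Ncr1, Gzma and Eomes of natural killer cells, Ly6g, Retnlg and S100a9 of neutrophils, and Plin1 of adipocytes had no counts in any KO library. B cell markers summed to 6.92 to 9.28 FPKM without and 7.21 to 7.81 FPKM with oxLDL. Mesothelium and fibroblast markers summed to 7.63 to 8.74 FPKM without and 8.44 to 9.12 FPKM with oxLDL. Neutrophil markers, through members not at 0, summed to 2.04 to 2.74 FPKM and 2.34 to 2.66 FPKM. By the edgeR test described below, no marker passed between the KO groups in the 9 of 11 cell type lists with a tested marker. The adipocyte and red blood cell lists had none with enough counts. DESeq2 called Col1a1, a fibroblast marker, and Timd4, a marker of large peritoneal macrophages, both higher with oxLDL. Replicate 3 with oxLDL stood apart from the other KO libraries in several inflammatory genes, for which values without it are given below. Without it no gene was called, and 10919 of the genes described below as well-counted were held within 2-fold.

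KO macrophages with oxLDL differed from untreated ones by about as much as libraries of one group differed from each other. The root mean square log2 difference between 2 libraries was taken over the 11444 genes averaging at least 100 counts in the KO libraries. It was 0.33 to 0.36 across the KO treatment groups. It was 0.32 within untreated KO, in each of the 3 pairs, and 0.31 to 0.35 within KO with oxLDL. The same distance between WT with and without oxLDL was 0.999 to 1.07. By this measure the KO groups therefore sat only slightly further apart than replicates. Genes with large differences weigh most in it, so a small shift in many genes could go unseen.

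The test called 2 genes of 17291 (0.0116%), both higher with oxLDL (edgeR's quasi-likelihood test on counts of all 12 libraries, Benjamini-Hochberg adjusted p under 0.05). In the WT libraries the same test called 8848 genes (51.2%), 23.9% of those tested being higher and 27.2% lower. Below, called means by this test unless another is named. Without adjustment, 820 genes (4.74%) were higher and 391 (2.26%) lower in KO at p under 0.05, so the leaning was towards higher values. Groups of 3 KO libraries did not overlap for 2320 genes (13.4%), of which 1299 (7.51%) were higher and 1021 (5.9%) lower.

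Ssbp4, a gene of the family of single-stranded DNA binding proteins, was the called gene with ample counts. It lies on chromosome 8 from 70597490 to 70608872 (GRCm38, minus strand). Its counts were 705, 729 and 641 untreated and 1499, 1668 and 1645 with oxLDL. All 3 libraries with oxLDL lay above all untreated ones. The log2 change was 1.19 ± 0.16 (SE), a 2.29-fold rise with a 95% interval of 1.80 to 2.91, and the adjusted p was 0.0349. Leaving out any 1 of the 6 KO libraries kept the change between 1.14 and 1.24 while the adjusted p ran from 0.0575 to 0.146. In WT, Ssbp4 did not pass, at -0.37 (adjusted p = 0.0692). Its mean was 6.49 ± 0.98 FPKM before and 3.76 ± 1.09 FPKM after oxLDL in WT, against 2.74 ± 0.16 and 6.29 ± 0.38 FPKM in KO (SD, n = 3). On the FPKM scale KO with oxLDL thus lay near the level of untreated WT. FPKM values lack the scaling of the fit, so these WT means fell further than the fitted -0.37.

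Nphp4, a gene of the ciliary transition zone, was the other call and rests on few reads. It had 0 counts in each untreated KO library and 32, 29 and 58 with oxLDL, which is at least 39.1-fold higher when untreated KO is set at a floor of 3 counts over the group. Its adjusted p was 0.0349 and rose to 0.110 without KO with oxLDL replicate 3, to 0.116 without KO replicate 1, to 0.0788 without KO replicate 2 and to 0.0594 without KO replicate 3. It stayed a call without KO with oxLDL replicate 1 (0.0481) or 2 (0.0395). Its first bases overlap Kcnab2 on the opposite strand, whose counts ran from 9627 to 10720 in the KO libraries. The strand setting of the counting is not given in the sources used here. Reads from the overlap cannot be told apart. In WT, Nphp4 had 35, 39 and 48 untreated counts against 9, 12 and 16 after oxLDL, the opposite order to KO.

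Counts that appeared from 0 were more frequent than counts that vanished. In 34 genes all untreated KO libraries had 0 and each library with oxLDL had at least 4 counts, while 13 genes showed the reverse. At a minimum of 10 counts there were 3 genes against 0. These were Nphp4, the long non-coding RNA 9230111E07Rik with 35, 36 and 46 counts (at least 38.4-fold higher, adjusted p = 0.34), and a second Zfp91 entry, ENSMUSG00000118491. That entry overlaps the main Zfp91 gene and had 35, 73 and 51 counts (at least 52.2-fold higher, adjusted p = 0.29). The main Zfp91 gene held 11728 to 12818 counts in every KO library, so this appearance concerns a few reads among many. Just outside the threshold, 3 more genes were also at 0 in untreated KO. Col5a3, a collagen chain gene, had 8, 34 and 21 counts with oxLDL (adjusted p = 0.058). Socs1, a feedback inhibitor of cytokine signalling, had 8, 4 and 10 (adjusted p = 0.06). Rtn2, a reticulon gene, had 13, 9 and 8 (adjusted p = 0.096).

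Among genes with ample counts just outside the threshold, Uqcrq, a subunit of respiratory complex III, had 477, 569 and 372 counts before oxLDL and 1259, 1133 and 1099 after it. The groups were far apart, at a log2 change of 1.28 ± 0.20 (SE, adjusted p = 0.06). Vasp, which speeds actin filament growth, had 2307, 2277 and 2188 counts against 2811, 2823 and 2847. Its difference was small and steady, at 0.30 ± 0.05 (adjusted p = 0.096), and it was held within 1.5-fold. In WT, Vasp rose by 1.60 log2.

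The lower gene with the smallest p lies inside another gene. 4930404N11Rik had 1527, 1416 and 1421 counts without oxLDL against 14, 38 and 31 with it, a log2 value of -5.73 ± 0.90 (SE, adjusted p = 0.06). It sits wholly within Mfsd12 on the opposite strand of chromosome 10. Mfsd12, which encodes a lysosomal membrane protein, had 36904, 39176 and 34161 untreated counts against 44373, 46984 and 50491 after oxLDL. Mfsd12 was thus higher in the libraries where the inner gene was lower, at 0.34 (adjusted p = 0.346), and how reads were shared out between the 2 genes was not tested. The same held for most well-counted genes with large negative values. Of 11 such genes at least 2-fold lower, 9 (81.8%) overlapped another counted gene, against 29.7% of all 11444 genes averaging at least 100 counts in the KO libraries (called well-counted here). Of 35 genes at least 2-fold higher, 10 (28.6%) did.

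How small a response the data exclude depended on the number of reads. A gene was taken as held within a given fold when 2 one-sided tests, against a rise and against a fall of that size, both passed after adjustment over all genes. Of all genes tested, 11794 (68.2%) were held within 2-fold. Among well-counted genes 11055 (96.6%) were held within 2-fold, 9599 (83.9%) within 1.5-fold and 6275 (54.8%) within 25%, meaning a rise of at most 25% or a fall of at most 20%. Over all genes tested the share held within 1.5-fold was 55.7%. The median gene of 100 to 1000 counts had a 95% interval reaching at most 1.44-fold in either direction. This bound was 1.17-fold for 1000 to 10000 counts and 1.11-fold above 10000 counts. It was 3.26-fold for 10 to 100 counts and 14.2-fold below 10, where no gene was held within 2-fold. For weakly counted genes a 2-fold response could therefore mostly not be excluded at this depth.

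**Figure D1:**
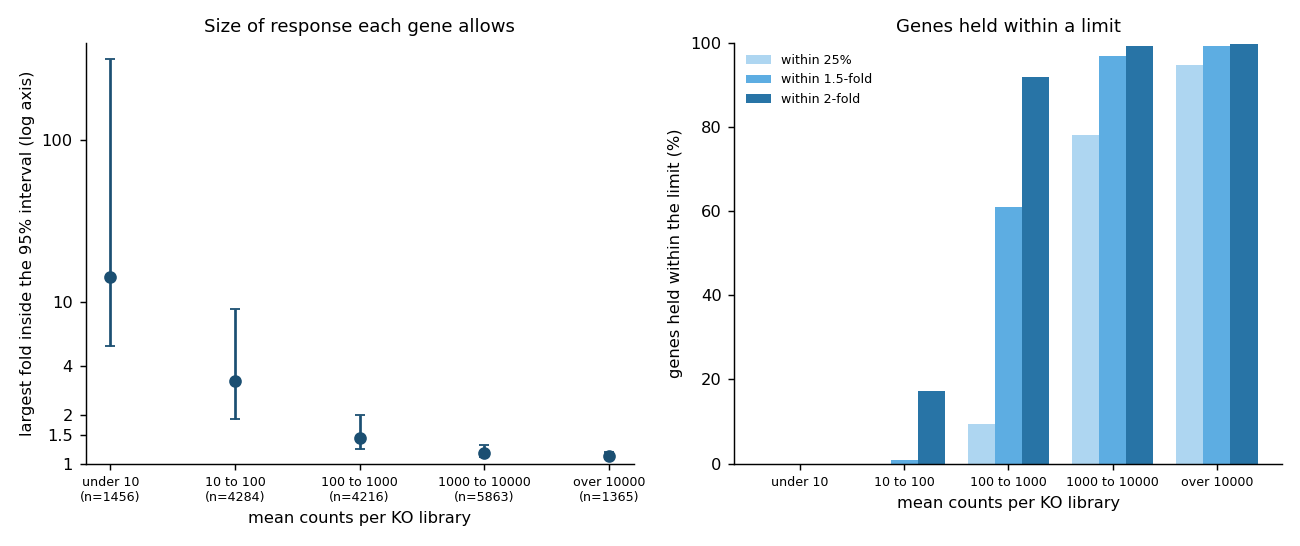
Left, the largest fold change, in either direction, inside the 95% interval of the oxLDL change in KO (log axis), by mean counts per KO library; points are medians over genes and bars the 10th to 90th percentile. Right, the percentage of genes held within 25%, 1.5-fold and 2-fold in the same classes; genes above 1000 counts are nearly all held within 1.5-fold and genes below 10 counts are held within none of the 3 limits.

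The narrowest intervals belonged to Ctsb, Eef1a1, Lcp1, Gpnmb and Sgpl1. Ctsb, a lysosomal protease, had 2974, 3008 and 2907 FPKM untreated and 2931, 2921 and 2806 FPKM with oxLDL. Its log2 change was -0.04, with an interval of -0.10 to 0.03. Gpnmb, a glycoprotein of lipid-laden macrophages, had 5688, 5688 and 5509 FPKM against 5488, 5497 and 5583 FPKM, at -0.03 (interval -0.09 to 0.04). Lcp1, an actin bundling protein, had -0.05 (interval -0.11 to 0.02) in KO while it rose by 1.38 in WT. The widest intervals among well-counted genes belonged to Gm49450, Gm48551, Commd1b, Gm49721 and Gm37240. Gm49450, for example, had 1522, 921 and 0 counts before oxLDL and 0, 845 and 1222 after it, and it overlaps Tuba1a and Tuba1b. Of the 50 well-counted genes with the widest intervals, 35 overlapped another counted gene.

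Of the 389 well-counted genes not held within 2-fold, 46 had a fitted change of at least 2-fold, 35 higher and 11 lower. The interval was wider than 1 log2 on each side in 120 genes, and 246 genes had neither property. At the other end, 7237 well-counted genes had a fitted change under 0.1 log2.

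Genes that oxLDL changed strongly in WT gave the most direct reading of the KO response. Of 1601 tested genes called and at least 2-fold up in WT, 963 were well-counted. The others averaged under 100 counts in the KO libraries and are not in this reading. In the 963, with a median WT change of 1.51, the median KO change was -0.00. In KO, 936 of them (97.2%) were held within 2-fold and 825 (85.7%) within 1.5-fold, against 96.6% and 83.9% of all well-counted genes. For 941 the upper end of the KO interval fell short of the lower end of the WT interval, and the difference between the 2 responses passed in 948 (edgeR's interaction test, which passed in 56.5% of all well-counted genes). Of 1909 tested genes called and at least 2-fold down in WT, 1400 were well-counted. In the 1400, with a median of -1.50 in WT, the KO median was 0.00. Of these 1303 (93.1%) were held within 2-fold, and the interaction passed in 1353. Both sets were chosen by their WT change, and the same WT libraries enter the WT interval and the interaction. That choice favours a pass, so the counts of 941, 948 and 1353 are no independent support. Over all 17291 genes the interaction passed in 7217 (41.7%). WT changes depend on the scaling, since the median gene in WT stood at -0.06 with TMM scaling and at -0.46 with library totals alone, while the KO median stood at -0.00 and 0.00.

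**Figure D2:**
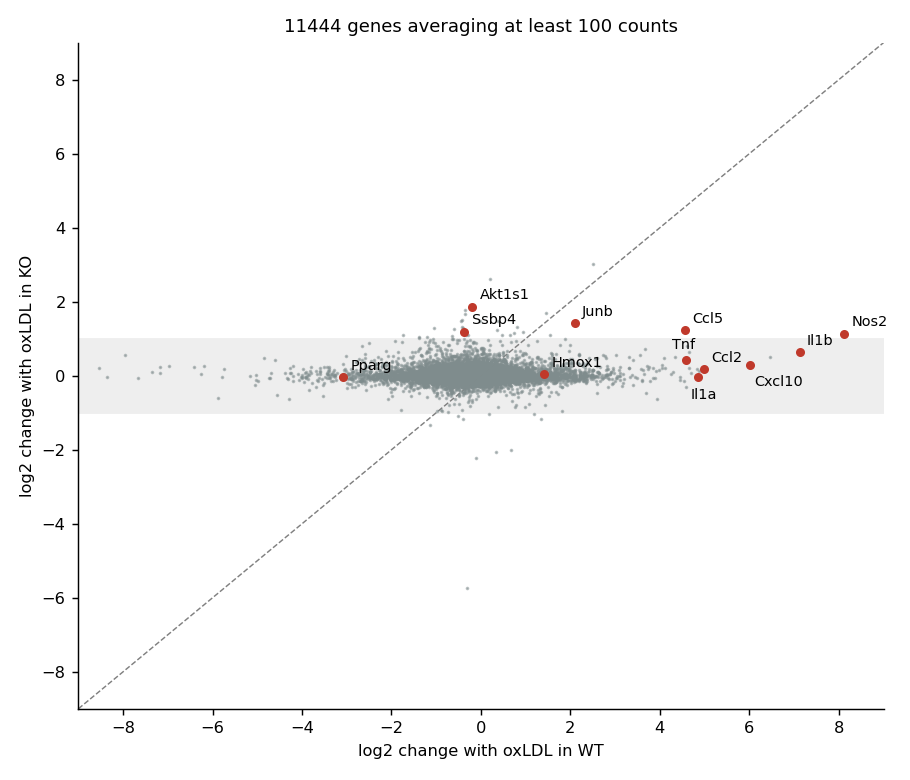
Log2 change with oxLDL in KO (vertical) against WT (horizontal) for the 11444 genes averaging at least 100 counts in the KO libraries; each point is a gene, the grey band spans 2-fold either way in KO and the dashed line marks equal change. The cloud is wide along the WT axis and lies almost entirely in the band along the KO axis; 4 genes fall outside the axes.

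Among the genes with the largest WT rise the KO values lay slightly above 0. In the 26 well-counted genes above 4 log2 in WT, the KO median was 0.22, with quartiles of 0.08 and 0.49, and 20 were held within 2-fold. The 41 genes between 3 and 4 in WT had a KO median of 0.03. Of the 963 genes at least 2-fold up in WT, 97 (10.1%) were higher in KO at unadjusted p under 0.05, against 5.58% of all well-counted genes, and 36 (3.74%) were lower, against 2.47%. Without KO with oxLDL replicate 3 the 97 higher genes became 64. Of the 1400 genes at least 2-fold down in WT, 15 (1.07%) were lower and 58 (4.14%) higher in KO, both under those shares. Across the 11444 well-counted genes the KO and WT changes had a Pearson correlation of 0.03 and a Spearman correlation of -0.03. Genes are not independent replicates, and the 2 changes share no library.

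The 27 functional lists held 522 genes, of which 516 were tested and none was called by edgeR with oxLDL in KO, against 0.0116% of all genes. DESeq2 called 12 members, against 110 of all 17291 genes. A fit of the 6 KO libraries alone called 6 members, against 61 of 15871 genes. In both, members were called at a higher share than all genes, in lists chosen with earlier results of these data known. Of the 516, 470 (91.1%) were held within 2-fold, and of the 474 well-counted members 459 were. The mean change of a list, over its tested members, had a 95% interval within 1.5-fold in all 27 lists and within 25% in 22. In 7 lists the interval lay above 0 and in none below. For 1 of the 7, the unfolded protein and integrated stress response, the mean of 0.11 became -0.0064 over its well-counted members. Over all genes the median log2 change was -0.00.

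**Figure D3:**
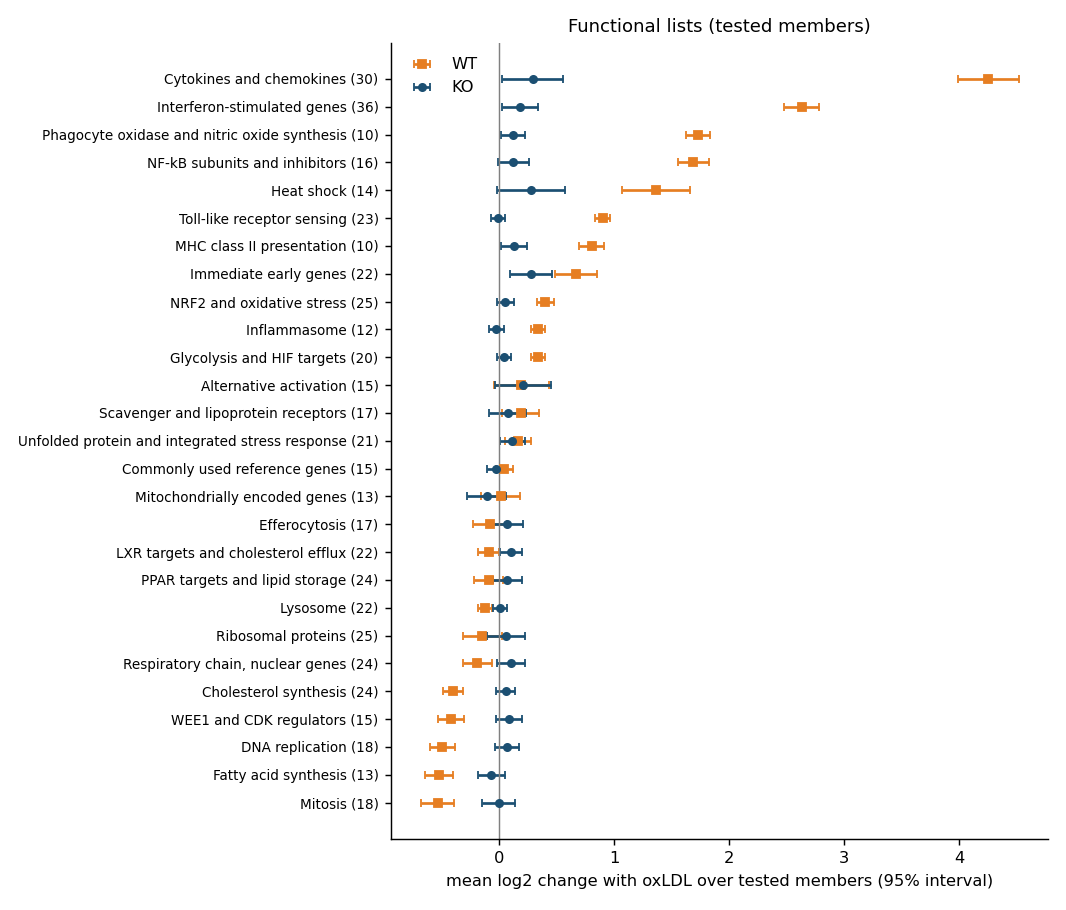
Mean log2 change with oxLDL over the tested members of each functional list, in KO (circles) and WT (squares), with 95% intervals. The intervals come from 1 fit of all 12 libraries with a spread pooled over the 4 groups, and do not show the spread of each group alone. KO means lie between -0.11 and 0.29, while WT means run from -0.54 for mitosis genes to 4.25 for cytokines and chemokines.

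NF-κB subunits and inhibitors bear most directly on the series title. None of 16 genes was called by edgeR in KO, 4 were higher and 1 lower at unadjusted p under 0.05 (4.74% and 2.26% of all genes), and 14 were held within 2-fold. The list median was -0.00, and the mean was 0.12 with an interval of -0.01 to 0.26, against a WT mean of 1.69. Without KO with oxLDL replicate 3 it was 0.08. Rela, which encodes p65, had 24.2, 22.9 and 22.4 FPKM untreated and 20.4, 23.0 and 22.2 FPKM with oxLDL. The groups overlapped, and the change was -0.08 with an interval of -0.23 to 0.06, against 1.28 in WT. Nfkb1, which encodes the p105 precursor of p50, was at 9.44, 9.71 and 9.25 FPKM against 9.15, 8.95 and 9.23 FPKM. Its interval was -0.16 to 0.05, against a rise of 1.86 in WT. Other members pointed higher. Nfkbia, which encodes the inhibitor IκBα, had 9.59, 9.24 and 8.45 FPKM untreated and 10.8, 11.3 and 11.6 FPKM with oxLDL. All oxLDL libraries were above the untreated ones, at 0.30 (interval 0.14 to 0.47, adjusted p = 0.31), and a 1.5-fold response was excluded. Nfkb2, the p100 precursor gene, had 0.26 (interval 0.12 to 0.41, adjusted p = 0.31). DESeq2 called both, at adjusted p = 0.0427 for Nfkbia and 0.0409 for Nfkb2. Bcl3, a nuclear IκB protein, had 1.37, 1.38 and 1.28 FPKM against 1.94, 2.24 and 2.95 FPKM. Its value of 0.82 (interval 0.30 to 1.34, adjusted p = 0.37) was too loose for the 2-fold limit.

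Toll-like receptor sensing genes and inflammasome genes were the most tightly bounded inflammatory lists. All 23 sensing genes were held within 1.5-fold, with a list mean of -0.01 (interval -0.07 to 0.05) against 0.90 in WT. Tlr4, the receptor for lipopolysaccharide, had 14.5, 15.2 and 15.8 FPKM untreated and 13.8, 14.6 and 14.2 FPKM with oxLDL. Its change was -0.09 (interval -0.21 to 0.02) in KO and -1.03 in WT. Tlr2 had 19.0, 18.5 and 17.9 FPKM against 17.9, 17.1 and 17.3 FPKM, at -0.09 in KO and 1.43 in WT. Irak2, a signalling kinase downstream of these receptors, leaned the other way at 0.13 (interval 0.03 to 0.23). All 12 inflammasome genes were held within 25%. Nlrp3, the sensor that assembles the inflammasome, had 4.16, 4.32 and 3.89 FPKM against 4.50, 4.07 and 4.33 FPKM. Its interval of -0.06 to 0.18 stood against a WT rise of 2.89. Nlrp1b had -0.07 (interval -0.30 to 0.15) in KO and -4.72 in WT.

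Cytokine and chemokine genes carried the largest WT response and the highest KO list mean. None of 30 tested genes was called by edgeR in KO, while DESeq2 called Ccl5 and Il18. At unadjusted p under 0.05, 8 were higher and none lower (4.74% and 2.26% of all genes), and 29 had risen in WT, where 23.9% of all genes did. The list mean was 0.29 (interval 0.02 to 0.55) in KO against 4.25 in WT. The mean log2 CPM (counts scaled to library size) over the list were -0.06, -0.02 and -0.04 in the untreated KO libraries and 0.03, 0.10 and 0.61 with oxLDL. They were 2.32, 2.20 and 2.31 in untreated WT, so the list was lower in KO before oxLDL. KO levels given below as a percentage of WT with oxLDL therefore do not measure the oxLDL change alone. Replicate 3 with oxLDL stood apart, and without it the list mean was 0.11. Only 15 members were held within 2-fold, and only 15 were well-counted.

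The well-counted chemokines had the tightest limits. Ccl3, a chemokine that attracts monocytes and T cells, had 34.0, 33.0 and 34.6 FPKM untreated and 34.6, 35.2 and 34.5 FPKM with oxLDL. The groups overlapped, at 0.04 with an interval of -0.08 to 0.16, against 4.24 in WT. Ccl4 had -0.07 (interval -0.29 to 0.16) against 3.50. Ccl2, which recruits monocytes, had 5.13, 5.20 and 4.43 FPKM untreated and 5.31, 5.56 and 5.84 FPKM with oxLDL. All oxLDL libraries were above the untreated ones, at 0.18 (interval 0.01 to 0.35, adjusted p = 0.71), so a 1.5-fold response was excluded where WT rose by 4.99. Il1a, the interleukin-1α gene, had 26.9, 28.1 and 27.9 FPKM against 25.8, 26.6 and 28.1 FPKM. Its interval of -0.15 to 0.06 reached at most 1.05-fold upward, against a WT rise of 4.85.

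Tnf, the gene of tumour necrosis factor, leaned higher within narrow limits. It had 4.32, 4.44 and 3.64 FPKM untreated and 4.46, 5.57 and 6.60 FPKM with oxLDL. Its change of 0.42 (interval 0.17 to 0.67, adjusted p = 0.34) was held within 2-fold, against 4.59 in WT. Without KO with oxLDL replicate 3 the value was 0.28. The highest KO library reached 0.827% of the mean level of WT with oxLDL, which was 797.6 ± 26.8 FPKM (SD, n = 3). Ccl5, a T cell attractant, came nearest to a call in the list. It had 112, 96 and 105 counts without oxLDL against 214, 167 and 361 with it, at 1.22 (interval 0.75 to 1.70, adjusted p = 0.11). DESeq2 called it (adjusted p = 0.00166), and edgeR did so in 1 of the 6 fits that left out a KO library. Its highest KO library was at 0.648% of WT with oxLDL. Il18, another cytokine gene, had 182, 205 and 204 counts against 270, 289 and 328, at 0.56 (interval 0.33 to 0.80, adjusted p = 0.17; 0.00512 by DESeq2), held within 2-fold.

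For other cytokines, Il1b and Cxcl10 among them although well-counted, the fold limits were looser but the levels were low. Il1b, the interleukin-1β gene, had 127, 94 and 86 untreated counts against 78, 135 and 273 after oxLDL. The library with 273 was replicate 3, and the change of 0.64 (interval -0.06 to 1.34) became 0.04 without it. The highest KO library had 1.78 FPKM, or 0.455% of the 391 FPKM in WT with oxLDL. Il6 counts were 0, 0 and 10 without oxLDL against 0, 19 and 35 after it, so that an interval up to 23.8-fold was allowed. Even so its highest KO library was at 0.425% of WT with oxLDL. Cxcl10, an interferon-induced chemokine, had 148, 113 and 159 counts against 126, 121 and 276, at 0.30 (interval -0.28 to 0.87), and -0.20 without replicate 3. Il12b and Cxcl1 pointed lower, at -0.40 and -0.79, with intervals that crossed 0.

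**Figure D4:**
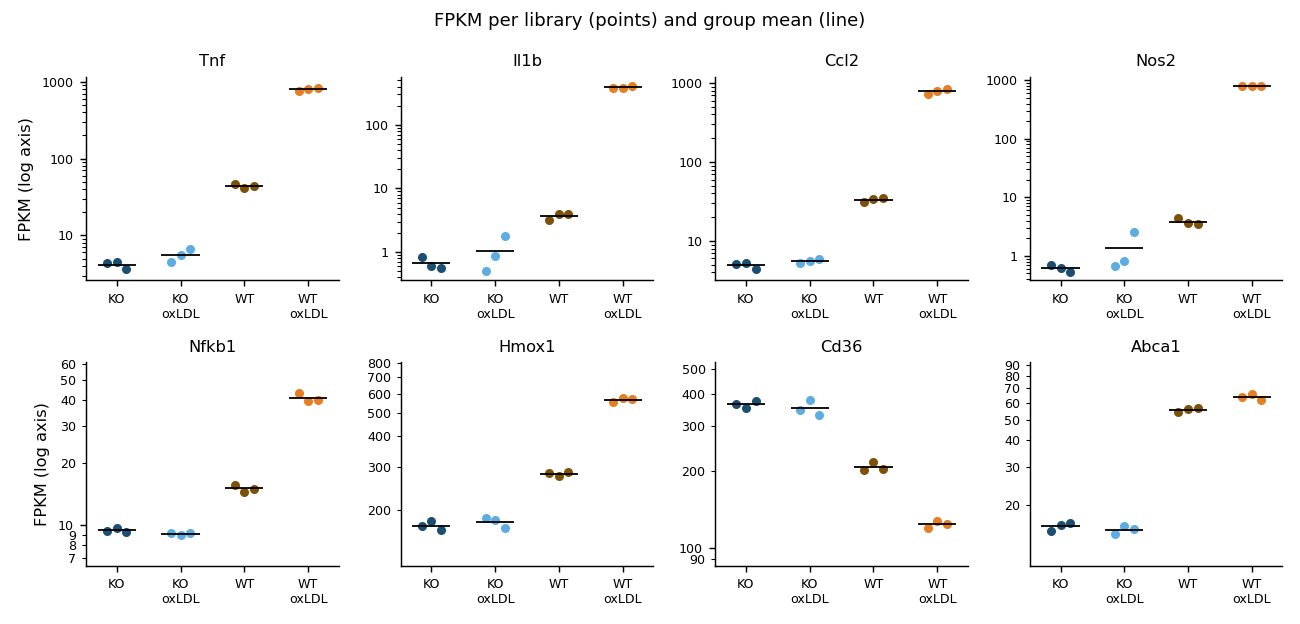
FPKM (log axis, its range set per gene) in each of the 12 libraries, points from left to right being replicates 1 to 3, with the group mean as a line. KO and KO with oxLDL overlap or nearly meet for all 8 genes, with the third oxLDL library highest for Tnf, Il1b, Ccl2 and Nos2, while WT with oxLDL lies far from untreated WT for the 4 inflammatory genes of the top row.

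Genes of nitric oxide synthesis and the phagocyte oxidase showed the same library. Nos2, the inducible nitric oxide synthase gene, had 240, 225 and 186 counts before oxLDL and 238, 295 and 919 after it. Replicate 3 stood far above the untreated libraries and replicate 2 slightly above, and the value of 1.14 (interval 0.31 to 1.97, adjusted p = 0.48) was 0.27 without it. That library held 0.322% of the Nos2 level of WT with oxLDL. Cybb, the catalytic subunit of the oxidase, had 209, 205 and 223 FPKM against 203, 217 and 204 FPKM, with an interval of -0.11 to 0.05. Of the 10 genes in the list, 8 were held within 25%. The list mean was 0.11 (interval 0.01 to 0.22) against 1.73 in WT, and 0.06 without KO with oxLDL replicate 3. Untreated KO already lay below untreated WT over the list, at a mean log2 CPM of 6.37 to 6.38 against 7.70 to 7.81.

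Interferon-stimulated genes leaned slightly higher as a list. None of 36 was called by edgeR, DESeq2 or the fit of KO libraries alone. At unadjusted p under 0.05, 12 were higher and none lower (4.74% and 2.26% of all genes), and 33 were held within 2-fold, as were 68.2% of all genes. The list mean was 0.18 (interval 0.02 to 0.33) in KO, 0.11 without KO with oxLDL replicate 3, and 2.63 in WT. Ifit2, an antiviral RNA binding protein, had 409, 464 and 572 counts without oxLDL against 587, 868 and 729 with it. The groups just did not overlap in counts, at 0.57 (interval 0.28 to 0.87, adjusted p = 0.28), held within 2-fold. Ifit1 had 198, 205 and 322 counts against 282, 394 and 352, at 0.48 (interval 0.14 to 0.82), with groups that overlapped. Irf9, which carries the interferon signal to DNA, had an interval of -0.18 to 0.02.

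Receptors that take up modified lipoprotein showed no detectable response, and 15 of 17 were held within 1.5-fold. None was higher and 1 was lower at unadjusted p under 0.05 (4.74% and 2.26% of all genes). Cd36 had 364, 354 and 374 FPKM untreated and 345, 378 and 331 FPKM with oxLDL. The groups overlapped, and the interval of -0.15 to 0.05 excluded even a change of 25%. Msr1, scavenger receptor A, had 27.2, 27.9 and 28.1 FPKM against 25.2, 27.7 and 24.9 FPKM, at -0.10 (interval -0.19 to -0.00, adjusted p = 0.71), whereas it rose by 1.67 in WT. Olr1, the LOX-1 receptor, had 539, 519 and 631 counts against 707, 671 and 520, at 0.15 (interval -0.13 to 0.43). Scarb1 had an interval of -0.19 to 0.14.

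Sterol export genes were held nearly as tightly. Of 22 liver X receptor targets and efflux genes, none was called by edgeR and 19 were held within 1.5-fold. The list mean was 0.10 with an interval just above 0 (0.005 to 0.19), against -0.09 in WT. At unadjusted p under 0.05, 4 were higher and none lower (4.74% and 2.26% of all genes). Abca1 had 15.1, 16.1 and 16.4 FPKM untreated and 14.5, 15.9 and 15.5 FPKM with oxLDL, at -0.05 (interval -0.14 to 0.04). Abcg1 had 37.1, 36.5 and 35.6 FPKM against 35.3, 37.4 and 41.0 FPKM, at 0.06 (interval -0.08 to 0.20). Lipa, the lysosomal acid lipase that frees cholesterol from its esters, had an interval of -0.13 to 0.01, against -1.46 in WT. Apoe, the apolipoprotein that accepts cellular cholesterol, pointed higher. It had 1348, 1493 and 1222 FPKM untreated and 1735, 1687 and 1616 FPKM with oxLDL. The groups did not overlap, at 0.31 (interval 0.17 to 0.45, adjusted p = 0.21), and DESeq2 called it (adjusted p = 0.00192), although a 1.5-fold rise was excluded. Nr1h2, which encodes liver X receptor β, was the one member not held within 2-fold, at 0.97 (interval 0.37 to 1.57, adjusted p = 0.362; 0.0273 in edgeR on the 6 KO libraries alone). Srebf1, which encodes SREBP1, was called by DESeq2 (adjusted p = 0.0334) and by that fit (0.0429). Ch25h, which makes 25-hydroxycholesterol, had 12, 12 and 4 counts against 8, 8 and 16, at 0.17 (interval -0.64 to 0.98), against 5.79 in WT.

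Cholesterol synthesis genes, which SREBP2 drives and sterol loading is known to lower, had no called member. Of 24 cholesterol synthesis genes none was called and 22 were held within 1.5-fold. At unadjusted p under 0.05, 2 were higher and none lower (4.74% and 2.26% of all genes). Hmgcs1, an enzyme early in the pathway, had an interval of -0.16 to 0.05, and Cyp51, a later one, an interval of -0.06 to 0.14. Srebf2, which encodes the transcription factor of this pathway, pointed higher with 22.3, 23.4 and 20.9 FPKM against 26.3, 26.5 and 29.7 FPKM. Its value was 0.31 (interval 0.11 to 0.50, adjusted p = 0.37). All 12 well-counted genes of the 13 in fatty acid synthesis were held within 1.5-fold. Fasn, the fatty acid synthase gene, had 0.14 (interval -0.06 to 0.34) and Acly, which supplies acetyl-CoA, -0.01 (interval -0.11 to 0.09).

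Lipid storage genes also stayed within narrow limits, with 20 of 24 held within 1.5-fold. Plin2, which coats lipid droplets, had 362, 382 and 347 FPKM untreated and 361, 365 and 337 FPKM with oxLDL. Its interval was -0.13 to 0.06. Fabp4, a fatty acid carrier, had 116, 132 and 122 FPKM against 133, 125 and 102 FPKM, at -0.04 (interval -0.23 to 0.16), while it fell by 2.06 in WT. Pparg, the receptor that drives such genes, had 27.3, 29.3 and 28.9 FPKM against 27.0, 28.0 and 28.3 FPKM, at -0.04 in KO (interval -0.17 to 0.09) and -3.09 in WT. Lpl, which releases fatty acids from lipoproteins, had an interval of -0.17 to 0.02. Pnpla2, a triglyceride lipase, pointed higher at 0.36 (interval 0.10 to 0.61, adjusted p = 0.47).

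Oxidative stress genes were bounded as closely, and protein stress genes less so. Of 25 NRF2 and oxidative stress genes 19 were held within 25%, with a list mean of 0.05 (interval -0.03 to 0.13). Hmox1, the haem oxygenase gene, had 171, 179 and 164 FPKM untreated and 185, 182 and 168 FPKM with oxLDL. The groups overlapped, at 0.05 (interval -0.05 to 0.15), against 1.42 in WT. Nfe2l2, which encodes NRF2, had an interval of -0.13 to 0.04. Atf4, the transcription factor of the integrated stress response, pointed higher at 0.22 (interval 0.07 to 0.37, adjusted p = 0.42). Gdf15, a stress hormone gene picked after its values were seen, had 158, 240 and 117 counts against 397, 544 and 757, at 1.70 (interval 0.40 to 3.01, adjusted p = 0.52). The heat shock list had the loosest list limit of the 27, at 1.49-fold. That width came with Hspa1a, Hspa1b and Hspb1, the 3 members not held within 2-fold, and the 11 other members were held within 25%. Hspa1b had 22, 43 and 12 counts against 41, 59 and 114.

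Immediate early genes, which many signals switch on within minutes, had an interval above 0. The list mean was 0.27 (interval 0.09 to 0.46) in KO and 0.67 in WT, and 0.20 without KO with oxLDL replicate 3. None of 22 was called by edgeR on all 12 libraries, and 17 were held within 2-fold. At unadjusted p under 0.05, 4 were higher and none lower (4.74% and 2.26% of all genes). Jun, a subunit of AP-1, had 30.0, 30.9 and 27.4 FPKM untreated and 39.6, 40.0 and 51.5 FPKM with oxLDL. The groups did not overlap, at 0.57 (interval 0.21 to 0.93, adjusted p = 0.38; 0.0417 in edgeR on the 6 KO libraries alone), held within 2-fold, while Jun fell by 1.02 in WT. Junb had 340, 398 and 336 counts against 488, 758 and 1669, at 1.42 (interval 0.30 to 2.54, adjusted p = 0.53), and 0.78 without replicate 3. Atf3 was steady at 119, 123 and 121 FPKM against 121, 119 and 118 FPKM (interval -0.10 to 0.07). Gadd45b, a stress-induced gene outside the list, had 2439, 2821 and 2183 counts against 4271, 5477 and 5398, at 1.004 (interval 0.56 to 1.45, adjusted p = 0.21).

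Cell cycle genes, the field of WEE1, had no member called by edgeR, while DESeq2 called Cdkn1a and Cdt1. In the list of WEE1 and other regulators of cyclin-dependent kinases, 11 of 15 were held within 1.5-fold. At unadjusted p under 0.05, 1 was higher and 1 lower (4.74% and 2.26% of all genes). Cdkn1a, which encodes the kinase inhibitor p21, had 9.98, 10.8 and 8.89 FPKM untreated and 12.5, 12.6 and 12.2 FPKM with oxLDL. The groups did not overlap, at 0.33 (interval 0.16 to 0.50, adjusted p = 0.27; 0.0145 by DESeq2), and 1.54 was its rise in WT. Replication genes had a list mean of 0.07 (interval -0.04 to 0.17) against -0.50 in WT. Pcna, the sliding clamp of DNA polymerase, had an interval of -0.12 to 0.12. Cdt1, which licenses replication origins, had 880, 1042 and 935 counts against 1182, 1430 and 1642, at 0.55 (interval 0.27 to 0.83, adjusted p = 0.27; 0.0215 by DESeq2). All 18 mitosis genes were held within 2-fold. Their list mean was -0.01 in KO and -0.54 in WT, where 2 were called higher and 11 lower (23.9% and 27.2% of all genes). Mki67, a proliferation marker, had an interval of -0.17 to 0.12 in KO while it rose by 1.15 in WT, against the direction of its list. Ccnb1, the cyclin B1 gene, had 351, 359 and 350 counts against 309, 311 and 251, at -0.30 (interval -0.60 to -0.01, adjusted p = 0.71).

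Lysosome genes had the tightest list limit, at 1.04-fold. Of 22 genes 21 were held within 25%. Ctsd, an abundant cathepsin, had 12276, 12818 and 12150 FPKM untreated and 12598, 12523 and 11704 FPKM with oxLDL (interval -0.09 to 0.06), against -0.49 in WT. The exception was Tfeb, which encodes a transcription factor of lysosome genes, with 6.70, 7.68 and 6.62 FPKM against 8.22, 9.49 and 11.6 FPKM. Its value was 0.48 (interval 0.09 to 0.86, adjusted p = 0.55), held within 2-fold. Of 17 genes for the clearance of dying cells 14 were held within 25%, Mertk among them (interval -0.12 to 0.06). Timd4, a receptor for phosphatidylserine, had 0, 0 and 7 counts against 21, 10 and 19 (adjusted p = 0.32; 0.00724 by DESeq2).

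Antigen presentation and alternative activation genes contained steady members and some that pointed higher. All 10 class II presentation genes were held within 2-fold, with a list mean of 0.13 (interval 0.02 to 0.24), which was 0.08 without KO replicate 3. H2-Aa, a class II α chain, had an interval of -0.12 to 0.07. H2-Eb1, a class II β chain, had 28.2, 31.0 and 25.8 FPKM untreated and 42.9, 47.4 and 45.4 FPKM with oxLDL. The groups were well separated, at 0.67 (interval 0.36 to 0.99, adjusted p = 0.22; 0.0378 by DESeq2), and in WT the value was -0.28. Of 15 alternative activation genes 13 were held within 2-fold. Tgfb1, the transforming growth factor β1 gene, had 31.7, 31.3 and 29.7 FPKM against 38.1, 39.1 and 46.9 FPKM, at 0.42 (interval 0.15 to 0.69, adjusted p = 0.38; 0.0491 in edgeR on the 6 KO libraries alone). Retnla had 10, 55 and 40 counts against 51, 29 and 71, which allowed no limit (interval -1.97 to 2.98).

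Housekeeping and energy genes had small list means in KO. TMM scaling sets typical genes near 0, so these means are no independent check of the scale. The 15 commonly used reference genes had a list mean of -0.03 (interval -0.11 to 0.05). Eef1a1, an elongation factor, had 2559, 2668 and 2630 FPKM untreated and 2617, 2633 and 2539 FPKM with oxLDL (interval -0.08 to 0.05). Ppia had 116, 119 and 129 FPKM against 111, 116 and 67.8 FPKM, so KO with oxLDL replicate 3 was low for this gene. Actb had 0.17 (interval 0.04 to 0.31, adjusted p = 0.52) in KO and 1.70 in WT. Of 20 glycolysis genes 19 were held within 1.5-fold. The 13 mitochondrially encoded genes had a mean of -0.11 (interval -0.28 to 0.06), which was -0.17 without KO replicate 2 and -0.06 without KO replicate 3. Nuclear respiratory chain genes had 0.10 (interval -0.02 to 0.23), which was 0.05 without KO with oxLDL replicate 1 and 0.16 without replicate 3. Ribosomal protein genes had 0.06 (interval -0.11 to 0.22), which was -0.02 and 0.14 without the same libraries, with Rpl4 at -0.01 (interval -0.09 to 0.08).

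How many genes pass in KO differed between fits. An edgeR fit of the 6 KO libraries alone, with its own filter and scaling, called 61 of 15871 genes at the same threshold, 60 of them higher. The median SD of log2 values among well-counted genes was 0.0889 in untreated KO, 0.0989 in KO with oxLDL, 0.0892 in WT before oxLDL and 0.109 in WT after it. DESeq2 on all 12 libraries called 110 genes, 99 higher and 11 lower, of which 36 were shared with the KO fit. Of the 110, 58 were held within 2-fold in the edgeR fit of all libraries. Of the 61, 25 were held within 2-fold in their own fit and 17 well-counted genes changed by at least 2-fold. Of the 61 genes, 6 were in the functional lists, namely H2-Eb1, Uqcrq, Nr1h2, Jun, Srebf1 and Tgfb1. Of the 60 higher genes, 9 (15%) were called higher and 16 (26.7%) lower in WT, against 30.2% and 36.4% of well-counted genes. Of the 99 higher genes of DESeq2, 43 (43.4%) were called higher and 19 (19.2%) lower in WT. No test was run on these shares.

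The following genes of that fit were picked after their values were seen. Rpl27a, a ribosomal protein, had 21.2, 25.5 and 18.3 FPKM untreated and 48.4, 40.7 and 38.9 FPKM with oxLDL, at 0.98 (interval 0.62 to 1.34, adjusted p = 0.096 with all 12 libraries). The groups were far apart, while WT held 44.3 FPKM untreated and 21.5 FPKM with oxLDL. FPKM values lack the TMM scaling of the fit, in which the WT change was smaller, at -0.63. Trmt112, a partner of methyltransferases, had 6.64, 7.35 and 6.10 FPKM against 13.8, 14.8 and 14.8 FPKM, at 1.11 (interval 0.63 to 1.59, adjusted p = 0.2). Its WT means were 15.3 and 9.46 FPKM, and its fitted WT change was -0.28. Akt1s1, an inhibitory subunit of mTOR complex 1, had 234, 317 and 185 counts against 621, 930 and 1178, at 1.87 (interval 0.98 to 2.76, adjusted p = 0.23). Mrpl34, a mitochondrial ribosomal protein, had 113, 119 and 119 counts against 240, 409 and 482, at 1.67 (interval 0.85 to 2.48, adjusted p = 0.26). Cst3, the cystatin C gene, had 6563, 7754 and 6703 counts against 14670, 21960 and 22464, at 1.47 (interval 0.74 to 2.20, adjusted p = 0.26). Id3, an inhibitor of helix-loop-helix factors, had 672, 796 and 534 counts against 1220, 1447 and 1647, at 1.09 (interval 0.39 to 1.78, adjusted p = 0.381). In all 6 the 3 libraries with oxLDL lay above the 3 untreated ones.

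**Figure D5:**
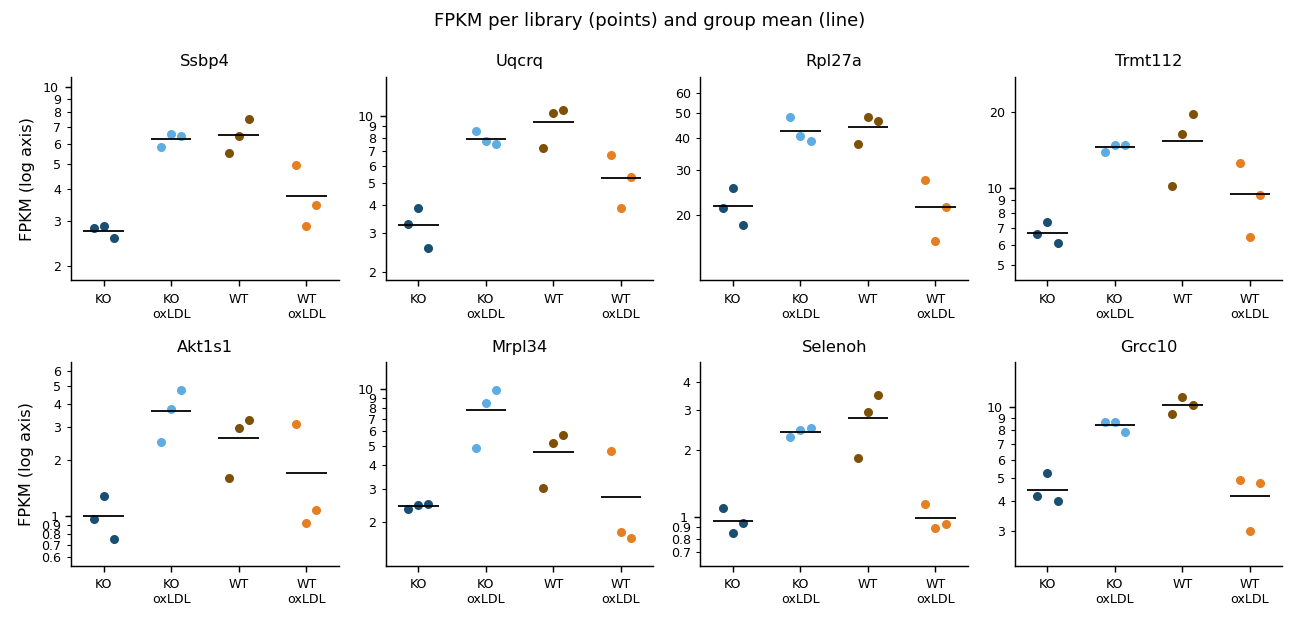
FPKM (log axis, its range set per gene) in each of the 12 libraries, points from left to right being replicates 1 to 3, with the group mean as a line, for 8 genes picked after their values were seen. KO with oxLDL lies above untreated KO in every panel, while mean levels in WT with oxLDL lie below untreated WT. FPKM values lack the TMM scaling of the fit, whose WT changes run from -0.19 for Akt1s1 to -1.04 for Selenoh.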

How the data were processed

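Poly(A) RNA of 12 libraries was sequenced in pairs, per the labels' protocols, and those protocols speak of an adipose type although the source is macrophages. Reads were handled with HISAT2 2.0 and Bowtie 0.12.2 on build mm8, per the submitters' processing notes, but 99.93% of 21990 genes matched GRCm38.p6 positions, so positions are given as GRCm38. The deposited table holds raw gene counts and FPKM values that the authors derived from those reads, per the file headers. Neither the counting tool nor a strand option is given in the sources used here. Symbols numbering 54 occur more than once and were kept apart by Ensembl identifier.

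Counts were tested with edgeR 4.0.16 (quasi-likelihood, TMM, filterByExpr, all 4 groups in 1 fit without block) in R 4.3.3. Calls used a Benjamini-Hochberg adjusted p under 0.05 over 17291 genes. Intervals (95%) are fitted change ± t × SE, and a gene was held within a fold when both one-sided tests passed after the same adjustment. Intervals for lists come from limma 3.58.1 on mean log2 CPM of all 12 libraries, with a spread pooled over the 4 groups. With 3 libraries against 3, an exact permutation test of 1 value cannot go below p = 0.1. Alternatives were library totals, DESeq2 1.42.0 and its size factors, limma on log2(FPKM + 1) and log2(FPKM + 0.1), limma-voom, no filter, the 6 KO libraries alone, a replicate block, other count minimums and leaving out each KO library. Scripts were tested on simulated data. Python 3.11.15 with pandas 2.3.3 drew up the summaries.

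Genes were named by rule: calls and the next 5 per direction, a set of NF-κB, cytokine and lipid genes, the extremes of each list, genes switching from 0, the strongest WT responders, and the narrowest and widest intervals. The lists and this rule were chosen with earlier results of these data known. Some genes of the rule are not reported here. Genes named as examples beyond the rule were chosen after their values were seen: Il18, Gadd45b, Ifit1, Ccl3, Ccl4, Il12b, Cxcl1, Hmgcs1, Lyz2, Cd68, Akt1s1, Mrpl34, Trmt112, Rpl27a, Pparg, Tlr2, Tlr4, Nlrp3, Lpl, Scarb1, Ctsd, Cst3, Id3, Gdf15, Nr1h2 and Mfsd12. Shared sequences among near-identical gene copies can be split by counting in ways not tested here.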

Additional observations from a re-analysis of the deposited data

Results flagged for a closer look

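The oxLDL change differed between KO and WT in 7217 genes by edgeR's interaction test, and each difference below is the KO change minus the WT change in log2. All of them passed that test at an adjusted p under 0.05.

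Inflammatory genes had the largest negative differences among the genes chosen by role. The difference was -6.98 for Nos2, -6.49 for Il1b, -5.02 for Il6, -4.81 for Ccl2, -4.17 for Tnf and -3.81 for Cxcl2. It was -2.06 for Nfkbia, -1.91 for Nfkb1 and -1.36 for Rela. In these 9 genes the WT libraries rose and the KO values lay between -0.08 and 2.37.

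Lipid and stress genes differed less and in both directions. The difference was -1.77 for Msr1, -1.68 for Olr1, -1.37 for Hmox1 and -0.66 for Abca1. It was 2.03 for Fabp4, 0.60 for Abcg1 and 0.29 for Cd36, which were lower with oxLDL in WT. With library totals in place of TMM the median interaction moved from 0.08 to 0.49, and none of the 26 genes given here changed sign.

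Genes named for their low p in KO included positive differences of 9.47 for Nphp4, 5.81 for Col5a3, 4.02 for Rtn2, 1.69 for Uqcrq and 1.56 for Ssbp4. The values for Nphp4, Col5a3, Rtn2 and Dusp14 rest on groups at 0 counts and have no fixed size. Negative differences were -7.37 for Dusp14, which had 6, 11 and 16 counts without oxLDL and 0 in each KO library given it, -5.41 for 4930404N11Rik, -2.22 for Gfpt2, -1.30 for Vasp and -1.21 for Hectd2. Gfpt2, an enzyme of hexosamine synthesis, had 245, 247 and 210 untreated counts against 121, 146 and 145 after oxLDL in KO. Its KO value was -0.79 (interval -1.18 to -0.39, adjusted p = 0.26), and it was 1.43 in WT. Hectd2, a ubiquitin ligase gene, had 190, 163 and 201 counts against 121, 90 and 104, at -0.83 in KO (adjusted p = 0.26).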

How the results depend on the processing

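The limits on the KO response moved little with the processing, and the number of calls moved more. Genes held within 2-fold among those averaging 100 counts ran from 10860 to 11337 under the other scalings, tools and left-out libraries. Lists with an interval within 25% ran from 21 to 27. Neither call changed sign. The mean of the unfolded protein list, whose interval lay above 0, reversed to -0.0064 with only members of at least 100 counts. Of the 27 list means 7 changed sign under some setting, and of 151 named genes 35 did, none of them with an interval clear of 0 in the reported fit. The 2 calls became 1 without the low-count filter, 1 with limma on log2(FPKM + 1), 0 with limma on log2(FPKM + 0.1), 7 with limma-voom, 61 with the 6 KO libraries alone and 110 with DESeq2. Leaving out 1 KO library gave 0 to 3 calls: 0 without KO replicate 1, KO replicate 2 or KO with oxLDL replicate 3, and 3 without KO with oxLDL replicate 1 or 2. With the replicate block 1 gene was called. Same-numbered KO libraries deviated together only weakly (correlations of -0.01 to 0.08, against -0.05 to 0.04 for other pairs). Of 6 libraries 2 correlated best with their own number. This check cannot show whether the numbers pair the libraries, since deviations from a mean of 3 libraries can correlate weakly in either case. Of genes at least 2-fold up in WT, the number held within 2-fold in KO (936) became 523 with library totals alone, 443 with log2(FPKM + 1) and 514 with log2(FPKM + 0.1). Of genes at least 2-fold down in WT (1303) it became 2485 with library totals and 2272 with log2(FPKM + 0.1), since these settings change which genes count as 2-fold in WT. Counts among WT-responsive genes at unadjusted p without 1 KO library were added after seeing the data. Depth limits the statements mainly below 100 counts, where 2-fold responses could mostly not be excluded.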

Other observations

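Among well-counted genes at unadjusted p under 0.05 in KO, 639 were higher with a median of 0.32 log2 and 283 were lower with a median of -0.17. Of the 639, 229 (35.8%) were called higher and 185 (29%) lower in WT. Of the 283, 132 (46.6%) were called higher and 69 (24.4%) lower in WT, against 30.2% and 36.4% of all well-counted genes. No test was run on these shares.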
